A study of Mus musculus with 8 samples.

Results

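The miR-23/27/24 clusters are a pair of mouse loci that each encode a miR-23, a miR-27 and a miR-24 hairpin. Their products were taken by name from the deposited tables: 9 mature miRNAs of 1915 listed, all of which passed the filter on low values, as did 599 names in all. MicroRNAs were sequenced from the prefrontal cortex of 12-week-old C57BL/6 mice, from 4 wild-type libraries, numbered 1 to 4, and 4 Fkbp5 Knockout libraries, numbered 1, 2, 4 and 5. The protein lost in the knockout is a co-chaperone of the glucocorticoid receptor, and the comparison asks which cortical miRNAs differ in its absence. The labels do not say how the Fkbp5 allele was made, in which cells it is missing, or whether each library is 1 animal. A p-value here therefore measures only how far the deposited libraries scatter, which may be technical. Because miRNA libraries hold no Fkbp5 mRNA, the genotype labels could not be checked.

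A primary transcript is cut by Drosha into hairpins and by Dicer into short duplexes, of which 1 strand is mostly kept in Argonaute. In these clusters the strand from the 3p arm is the one kept (the guide), and the 5p strand is mostly lost (the passenger). A guide recognises messenger RNAs chiefly through its seed, the bases 2 to 8 from its 5′ end. miR-23 and miR-27 are known for roles in blood vessel growth, and miR-27 also in the control of fat cell formation and lipid genes. miR-24 is known as a brake on the cell cycle, and miR-23a for repressing lamin B1 in oligodendrocytes, the myelin-forming glia.

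The a locus holds Mir23a, Mir27a and Mir24-2 on chromosome 8, and the b locus holds Mir23b, Mir27b and Mir24-1 on chromosome 13. Positions are from RefSeq on GRCm38.p6, the assembly that mm10 names, and annotations from GENCODE M21 on the same assembly. On the plus strand of chromosome 8 the hairpins lie at 84208518 to 84208592 (Mir23a), 84208672 to 84208758 (Mir27a) and 84208815 to 84208921 (Mir24-2), a span of 404 bases. Neither Mir23a nor Mir27a overlaps another annotated gene, and the end of Mir24-2 overlaps the exon of the long noncoding RNA Gm26532. On the plus strand of chromosome 13 they lie at 63300484 to 63300557 (Mir23b), 63300712 to 63300784 (Mir27b) and 63301208 to 63301275 (Mir24-1), a span of 792 bases inside the gene 2010111I01Rik, which encodes an aminopeptidase. Mir23b is intronic there, while Mir27b and Mir24-1 overlap exons that some transcripts of that gene carry in an untranslated region. All 3 also fall in an intron of Fancc, which runs on the other strand. Opposite the miR-24 hairpins lie Mir3074-2 and Mir3074-1 on the minus strand.

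**Figure D1:**
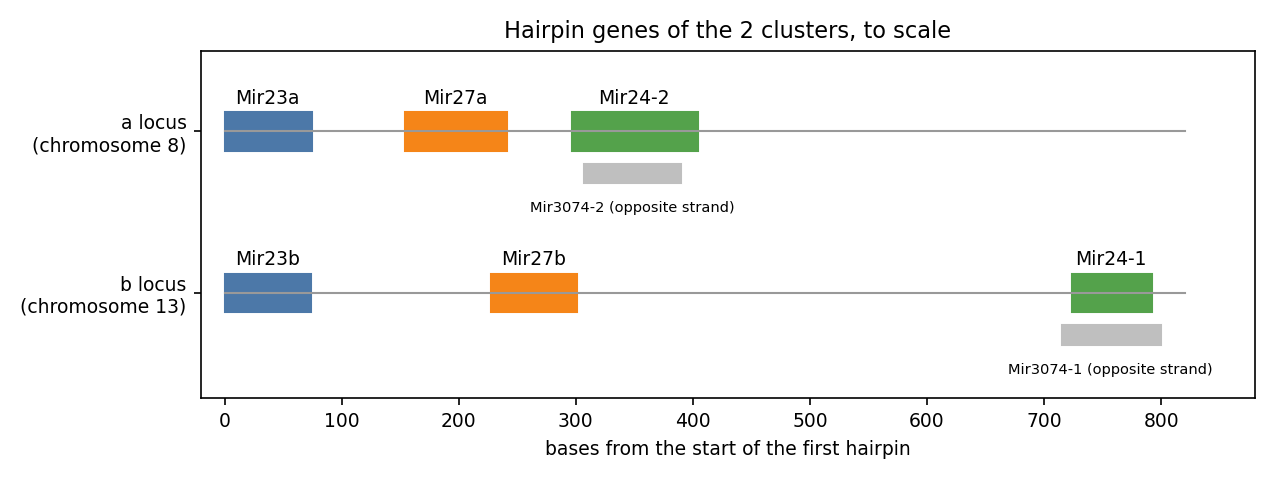
Hairpin genes of both clusters, drawn to scale as bases from the start of the first hairpin, with the opposite-strand Mir3074 hairpins in grey. The a locus spans 404 bases and the b locus 792, and the gap before the miR-24 hairpin is 56 bases in the a locus and 423 in the b locus.

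The mature sequences show what each locus shares and what tells its products apart. RefSeq gave a sequence for 8 of the 9 members (GRCm38.p6), printed 5′ to 3′ with the seed in capitals.
miR-23a-3p: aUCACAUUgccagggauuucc
miR-27a-3p: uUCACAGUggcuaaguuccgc
miR-27b-3p: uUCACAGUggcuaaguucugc
miR-24-3p: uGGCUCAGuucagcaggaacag
miR-24-2-5p: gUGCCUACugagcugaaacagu
miR-24-1-5p: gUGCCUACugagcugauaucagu
miR-27a-5p: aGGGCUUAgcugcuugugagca
miR-27b-5p: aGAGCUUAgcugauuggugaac
miR-128-3p: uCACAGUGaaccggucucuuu
miR-27a-3p and miR-27b-3p share their seed and differ by C19U alone (position from the 5′ end, the base of miR-27a-3p first). miR-24-3p has the same sequence from both hairpins, so its value is the output of both loci together. The miR-24 passengers do carry their locus: their first 16 and last 4 bases are the same, and the bases between differ. The miR-27 passengers differ at 8 of 22 positions, 1 of them (G3A) in the seed. miR-128-3p, the most abundant miRNA of these libraries, is no member but is shown because its first 8 bases equal bases 2 to 9 of miR-27, so that their seeds are shifted by 1 base. The 4 other mouse miRNAs with the seed of miR-24-3p, miR-6413, miR-6410, miR-6369 and miR-5124b, were at 0 in every library.

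Values below are the deposited ones rescaled between libraries, with no unit. Levels of members, of 21 to 23 bases, are set side by side without a length correction. No correction for sequence was made either, so ratios between different miRNAs are of deposited values and may not be those of molecules. mmu-miR-24-3p was the most abundant member, at rank 24 of the 1915 names. It stood at 74623, 97603, 88522 and 88639 in wild-type replicates 1 to 4. In knockout replicates 1, 2, 4 and 5 it stood at 95262, 86386, 82325 and 91932. Wild-type replicate 1 was the lowest and wild-type replicate 2 the highest, so the knockout values lay within the wild-type range.

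mmu-miR-27b-3p came next, at rank 30, with 62167, 61196, 59368 and 64544 in wild type and 57554, 59884, 52966 and 52646 in the knockout. Of the knockout libraries only replicate 2 reached into the wild-type range. It was also among the steadiest of the abundant miRNAs: of the 205 tested names with a mean of at least 1000, 2.44% had a smaller SD of log2 values within genotypes. mmu-miR-23b-3p was at rank 47, with 29500, 25995, 32995 and 25272 in wild type and 28155, 25943, 29239 and 31332 in the knockout.

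The guides of the a locus were lower. mmu-miR-23a-3p was at rank 52, with 15520, 17374, 20177 and 18012 in wild type and 17854, 17512, 17791 and 17113 in the knockout. The knockout libraries were nearly equal and lay inside the wild-type spread. mmu-miR-27a-3p was at rank 125 and varied most among the guides, with 2559, 4289, 3152 and 4818 in wild type and 3570, 4087, 3215 and 3286 in the knockout. Wild-type replicates 2 and 4 were high and replicate 1 was low, a 1.88-fold range over the 8 libraries, and 89.8% of the 205 abundant miRNAs had a smaller SD of log2 values.

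The passengers were far lower than their guides. mmu-miR-24-2-5p ran from 892.5 to 1056 in wild type and from 853.8 to 949.1 in the knockout, and mmu-miR-24-1-5p from 314.6 to 360.5 and from 299.1 to 363.1. mmu-miR-27b-5p ran from 329.3 to 462 in wild type and from 378.8 to 418.3 in the knockout. mmu-miR-27a-5p was the rarest member, from 20 to 28.2 in wild type and from 17.6 to 32.4 in the knockout. For each passenger the groups overlapped. Together the 9 members made up 1.06 ± 0.0742% of the deposited values (SD, n = 8), with miR-24-3p at 44.4 ± 2.29% of that sum.

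**Figure D2:**
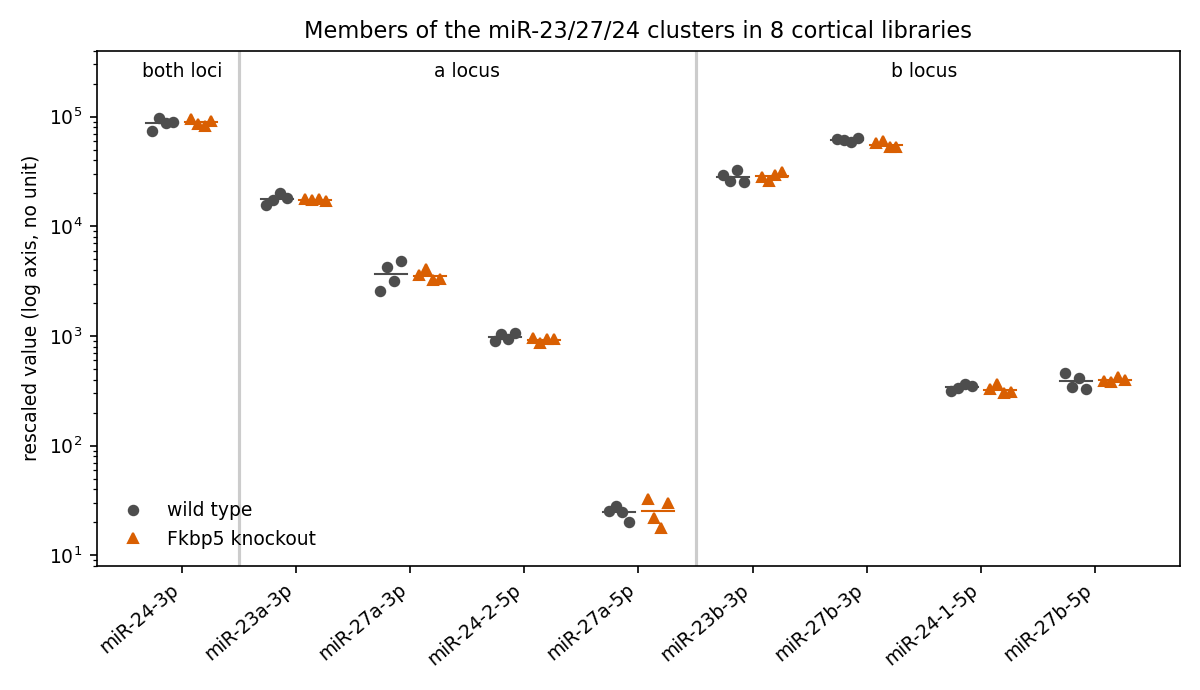
Rescaled value of each member in every library on a log axis, by locus, with wild type as circles, knockout as triangles and group means as lines. miR-24-3p is at 74623 to 97603 and miR-27a-5p at 17.6 to 32.4, and the genotypes overlap for each of the 9 members.

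The first comparison set the loci against each other inside each library, where scaling plays no part. By these values the b locus was higher for the miR-23 and miR-27 guides, and the a locus for the miR-24 passenger. The order of the loci in the values thus depended on the product. miR-27a-3p stood at 6.07% of miR-27b-3p on average (4.12% to 7.46% over libraries), a log2 ratio of -4.04 ± 0.27 (SD, n = 8). miR-27b-3p was thus 16.5-fold the more abundant, and higher in 8 of 8 libraries. miR-23b-3p exceeded miR-23a-3p 1.61-fold, with a log2 ratio of a to b of -0.69 ± 0.15, also in 8 of 8 libraries.

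For the passengers of miR-24 the order was the other way round. miR-24-2-5p of the a locus was 2.86-fold above miR-24-1-5p of the b locus, with a log2 ratio of 1.52 ± 0.15, and was the higher in 8 of 8 libraries (ratios of 2.35 to 3.14). Each of the 3 log2 ratios differed from 0 by a two-sided exact sign-flip permutation test over 8 libraries (p = 0.00781 each, the smallest that 256 arrangements can give, and 0.00781 after Benjamini-Hochberg adjustment over the 3). The test shows only that a ratio of deposited values repeats over libraries. Unequal capture or read assignment of the sequences would repeat in every library too, and was not tested. As a share of each product, the b locus held 94.2 ± 0.942% of the miR-27 guide, 61.7 ± 2.45% of the miR-23 guide and 25.9 ± 1.996% of the miR-24 passenger (SD, n = 8). The other passengers went with their guides: miR-27b-5p averaged 391.5 against 25 for miR-27a-5p, and miR-23b-5p, no member, averaged 49.3 against 12.7 for miR-23a-5p.

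The order of the products inside a cluster also differed between the loci. In the b locus miR-27b-3p was 2.08 ± 0.308 times as high as miR-23b-3p (SD, n = 8, lowest 1.68). In the a locus miR-23a-3p was 5.04 ± 0.958 times as high as miR-27a-3p (lowest 3.74). The unequal levels within a locus came from hairpins that lie within 792 bases of each other. How reads that fit both miR-27 guides, or both miR-23 guides, were assigned is not given in the sources used here. The miR-27 guides differ at 1 base. The miR-23 guides could not be compared, because RefSeq gave no sequence for miR-23b-3p.

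Genotype was compared next. No member passed the test between knockout and wild type: by limma with Benjamini-Hochberg adjustment 0 of 9 reached 0.05, and 0% of the 599 tested miRNAs did. At an unadjusted p under 0.05 there were also 0 of 9 members, beside 4.01% of all tested, and the groups failed to overlap for 0 of 9 members, beside 1.5% of all. In this bulk tissue fewer cells of a type and less RNA per cell cannot be told apart.

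The member with the smallest p was miR-27b-3p, with a wild-type mean of 61819 ± 2156 and a knockout mean of 55762 ± 3546 (SD, n = 4 each). Its log2 fold change was -0.15 ± 0.09 (SE), or 0.901-fold with a 95% interval of 0.791 to 1.03, with a limma p of 0.106 and an adjusted p of 0.994. miR-24-3p averaged 87347 ± 9490 and 88976 ± 5750, a log2 fold change of 0.03 ± 0.10. For the other guides the log2 fold change was also small beside its SE: miR-23a-3p was at -0.01 ± 0.10, miR-23b-3p at 0.02 ± 0.11 and miR-27a-3p at -0.03 ± 0.19. Leaving out single libraries turned the sign of miR-24-3p, miR-23a-3p, miR-23b-3p and miR-27a-3p, and not that of miR-27b-3p.

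Of the passengers, miR-24-2-5p was at -0.09 ± 0.11, miR-24-1-5p at -0.07 ± 0.12, miR-27b-5p at 0.05 ± 0.14 and miR-27a-5p at 0.02 ± 0.25. In all, 5 of 9 members had a negative log2 fold change, beside 46.1% of all tested miRNAs. The median was -0.01 for the members and 0.02 for all tested, and the median absolute value 0.03 against 0.11. The 95% interval lay inside 1.5-fold either way for 9 of 9 members, beside 56.4% of all tested, and so also inside 2-fold, beside 86.5%. Apart from miR-27a-5p (rank 504), the members ranked from 24 to 287 by mean, and all tested miRNAs include many rarer names. No set of like abundance was compared. miR-27a-5p, the rarest, had the widest interval, from 0.692-fold to 1.49-fold.

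**Figure D3:**
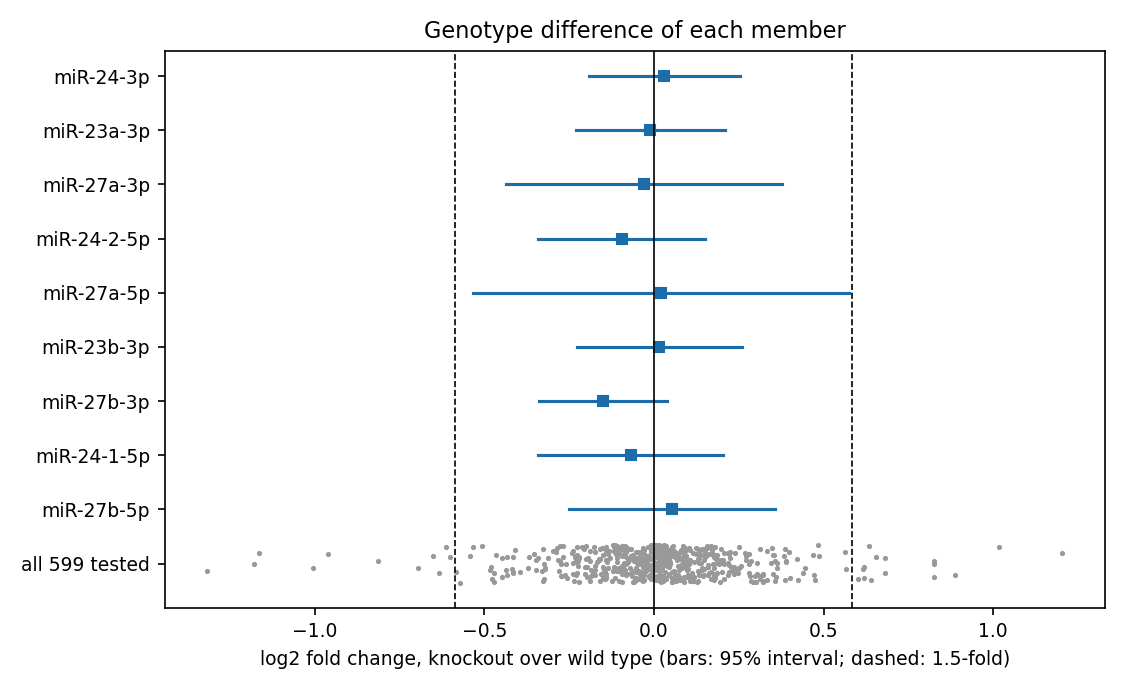
Log2 fold change (knockout over wild type) of each member with its 95% interval from limma, above those of all 599 tested miRNAs as grey points spread vertically at random. Every member's interval includes 0 and stays inside the dashed lines at 1.5-fold, and miR-27b-3p is the farthest from 0, at -0.15.

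The balance between the loci was then compared by genotype. The ratio of miR-27a-3p to miR-27b-3p was 4.12%, 7.01%, 5.31% and 7.46% in wild-type replicates 1 to 4. It was 6.20%, 6.83%, 6.07% and 6.24% in knockout replicates 1, 2, 4 and 5. The knockout libraries fell between the wild-type extremes, and the mean log2 ratio differed by 0.12 (95% interval of -0.30 to 0.73 from inverting the exact test). The two-sided exact permutation p over 70 arrangements was 0.629, where the smallest possible is 0.0286. Without wild-type replicate 1, the lowest, that difference was -0.044. For miR-23a-3p to miR-23b-3p the difference was -0.03 (-0.38 to 0.36, exact p = 0.8286). For miR-24-2-5p to miR-24-1-5p it was also -0.03 (-0.42 to 0.26, exact p = 0.8), with knockout replicate 2 the lowest at 2.35.

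The use of hairpin arms gave no call either. The miR-27b passenger stood at 0.744%, 0.561%, 0.69% and 0.511% of its guide in wild-type replicates 1 to 4, and at 0.68%, 0.633%, 0.791% and 0.761% in knockout replicates 1, 2, 4 and 5. Wild-type replicates 2 and 4 were the lowest of the 8, and the other wild-type libraries lay among the knockout ones. The log2 ratio was 0.20 higher in the knockout (-0.23 to 0.63, exact p = 0.229). The miR-24 passengers together stood at 1.34% to 1.62% of miR-24-3p, with a log2 difference of -0.12 (-0.27 to 0.08, exact p = 0.143). For miR-27a the difference was 0.05 (-0.86 to 1.12, exact p = 0.914). Adjusted over these 6 ratios, p was 0.686 for miR-27b and miR-24 and 0.914 for the others.

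**Figure D4:**
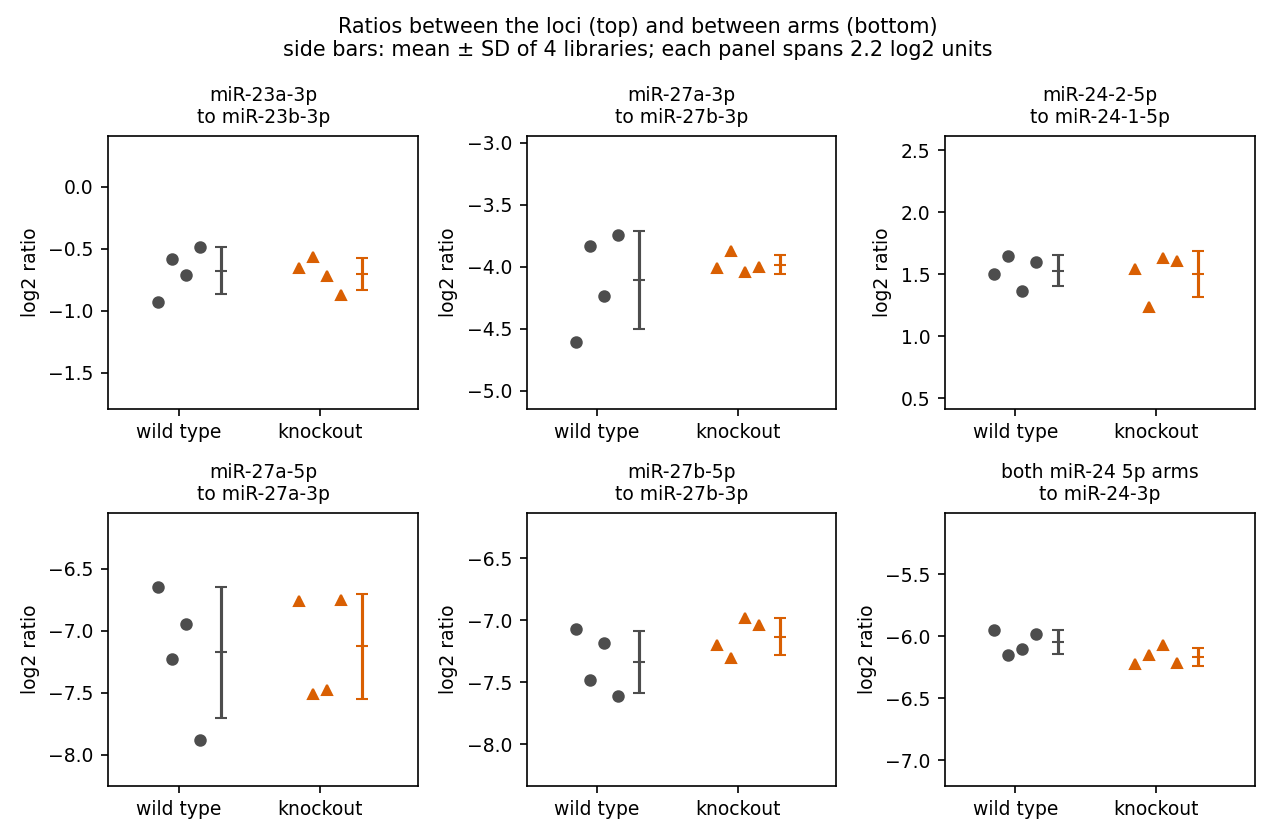
Log2 ratio in every library for products of the a locus over the b locus (top) and passengers over guides (bottom), with mean ± SD of 4 libraries beside the points. Each panel spans the same range, and the genotypes overlap in all 6, with exact p from 0.143 to 0.914.

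The miR-23 and miR-27 hairpins were all one-sided, those of miR-23 the more so. Among 141 hairpins whose arms both averaged at least 20, the median absolute log2 ratio between arms was 3.38. It was 7.18 for miR-27a, 7.23 for miR-27b and 9.18 for miR-23b, and 25, 24 and 6 of the 141 hairpins were more uneven. miR-23a was not among the 141, because its passenger averaged 12.7, and its ratio was 10.4. The minimum of 20 leaves out hairpins with the rarest passengers, so these ranks hold only among hairpins with both arms above it.

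Products cut from 1 primary transcript can be asked whether they vary together across libraries. For the 5 guides no pair passed adjustment. Over their 10 pairs the median Pearson r of log2 values was 0.09 (n = 8 libraries), beside 0.01 over all pairs of the 205 abundant miRNAs. For miR-23a-3p and miR-27a-3p of the a locus r was 0.294 and Spearman's rho 0.214 (exact permutation p = 0.5005 and 0.619, or 0.781 and 0.881 adjusted over the 10 pairs), with an r of 0.320 without wild-type replicates 1 and 3. For miR-23b-3p and miR-27b-3p of the b locus r was -0.535 and rho -0.548 (exact permutation p = 0.174 and 0.171, or 0.582 and 0.570 adjusted), with an r of -0.638 without wild-type replicates 3 and 4. The lowest r was that of miR-27a-3p with miR-23b-3p, at -0.782 with a rho of -0.857 (exact permutation p = 0.0225 and 0.0107, or 0.225 and 0.107 adjusted over the 10 pairs), and -0.916 without wild-type replicates 1 and 4. With all 8 libraries, r of this pair was -0.827 with upper quartile scaling and -0.808 with median of ratios scaling. It was -0.425 relative to the library total and -0.038 in the values as deposited.

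When all 36 pairs of members were taken, a choice made after the values had been seen, 1 pair passed adjustment. miR-27a-3p, the guide of the a locus, and miR-27b-5p, the passenger of the b locus, moved in opposite directions over the 8 libraries. miR-27b-5p stood at 462, 343.1, 409.3 and 329.3 in wild-type replicates 1 to 4, where miR-27a-3p was low, high, low and high, and at 390.7, 378.8, 418.3 and 400.1 in knockout replicates 1, 2, 4 and 5. Pearson's r was -0.977 and rho -0.976 (exact permutation p = 4.96e-05 and 0.000397, or 0.00179 and 0.0143 adjusted over the 36 pairs). It was -0.927 without the 2 libraries farthest from the median of miR-27a-3p (wild-type replicates 1 and 4) and -0.986 with genotype means removed.

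Both the size of this relation and its call rested on the scaling between libraries. With median of ratios scaling r was -0.989 and passed (adjusted exact permutation p = 0.000893 over the 36 pairs). The call was lost with upper quartile scaling (r = -0.772, adjusted p = 0.312 by the same exact test), relative to the library total (r = -0.747, adjusted exact p = 0.443) and in the values as deposited (r = -0.133, adjusted exact p = 0.769). With 1 library left out and the main scaling, r ran from -0.993 to -0.962 and the adjusted exact p from 0.00714 to 0.0143. Of the 179101 pairs of all tested miRNAs, 43 had an r at least as far from 0, 6 of them negative. Some tested names had the same log2 fold change and SE as another, such as miR-199a-3p and miR-199b-3p. The pairs may thus not all be of separate miRNAs.

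**Figure D5:**
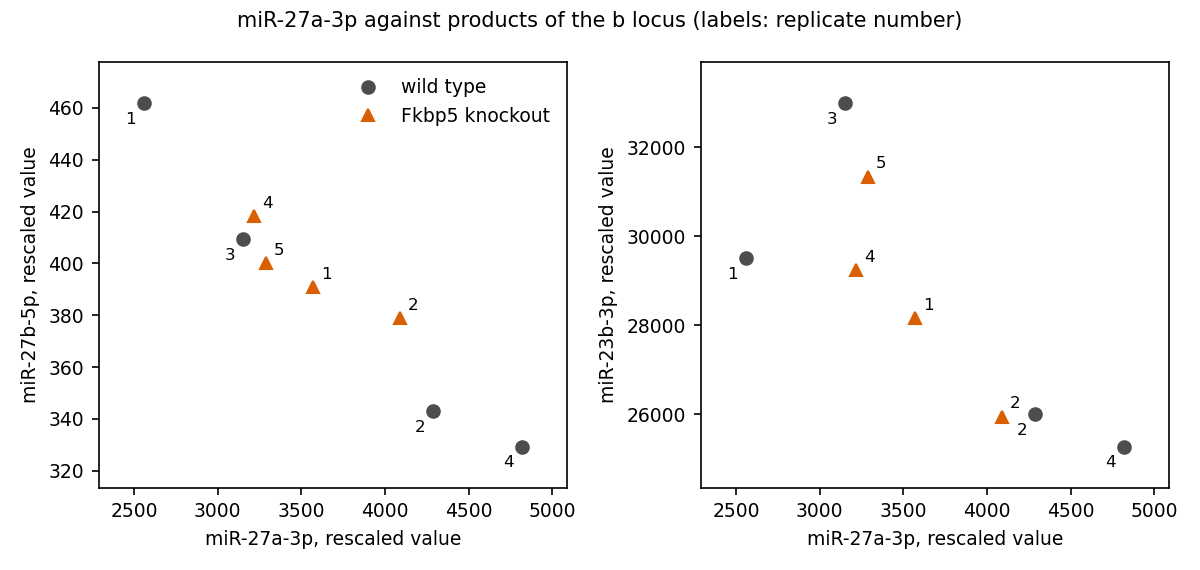
Rescaled values of miR-27a-3p against miR-27b-5p (left) and miR-23b-3p (right), 1 point per library labelled with its replicate number, wild type as circles and knockout as triangles. On the left the points fall from 462 at a miR-27a-3p of 2559 to 329.3 at 4818, with r = -0.977, and on the right r is -0.782.

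Outside the members, the closest patterns were named by correlation with the mean log2 value of the guides of each locus over 8 libraries, among 360 miRNAs with a mean of at least 100. For the a locus they were miR-331-3p (r = 0.921), miR-374c-5p (0.898) and miR-374b-5p (0.897), for the b locus miR-186-5p (0.860), miR-151-3p (0.783) and miR-222-5p (0.753). They are the highest of 360 values each and are given as a description. The guides of the b locus had an r of -0.535 with each other, so their mean is not a pattern that both share. In the a locus that r was 0.294, and miR-27a-3p had a larger SD of log2 values within genotypes than miR-23a-3p (0.314 against 0.112). miR-374c-5p and miR-374b-5p had nearly the same mean (2720 and 2726) and log2 fold change (0.07 each), so they may not be separate patterns.

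On the strand opposite the miR-24 hairpins, miR-3074-5p covers 20 of the bases of miR-24-3p. It was listed at 26, 32, 26 and 16 in wild type and 12, 19, 15 and 18 in the knockout before rescaling, so wild-type replicate 4 lay within the knockout range. Its log2 fold change was -0.58 ± 0.25, with a limma p of 0.0415 and an adjusted p of 0.994. miR-3074-1-3p reached at most 10 and miR-3074-2-3p was at 0 in every library. Whether counting used strand is not given in the sources used here.

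miR-128-3p, with the shifted seed, had a wild-type mean of 4510400 ± 747790 and a knockout mean of 4456980 ± 710752 (SD, n = 4 each), with a log2 fold change of -0.02 ± 0.14. It exceeded both miR-27 guides together 72-fold on average (54-fold in wild-type replicate 2 to 86.6-fold in knockout replicate 1).

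The deposited values of a library summed to between 16180699 and 21555993, with 963 to 1033 names above 0, and rescaling divided them by 0.840 to 1.20. Neuronal miRNAs led the libraries: 6 of 6 listed were present, with summed levels of 6361370 to 8339880 for wild type and 6360560 to 8371870 for knockout. No member of any of the 9 marker lists passed the test after adjustment, and no list had a marker at 0 in every library. The list for endothelial and mural cells had 4 of 4 markers with a negative log2 fold change (median -0.10). Its sums, led by miR-143-3p and miR-126a-3p, were 72864 to 101602 for wild type against 55398 to 87044. miR-143-3p was at -0.42 ± 0.17 (SE), miR-126a-3p at -0.07 ± 0.11, miR-126a-5p at -0.12 ± 0.17 and miR-145a-5p at -0.07 ± 0.23. Of these, miR-126a-3p and miR-126a-5p are arms of the same hairpin. For oligodendrocytes 4 of 4 markers had a negative log2 fold change (median -0.18) and for microglia and leukocytes 3 of 5 (median -0.34). Of all tested miRNAs, 46.1% had a negative log2 fold change. The microglia and leukocyte sums were 12445 to 13225 for wild type and 11407 to 15342 for knockout. The most abundant marker of that list, miR-150-5p, was at 0.18 ± 0.15 (SE), and miR-142a-3p was at 0.02 ± 0.23. Medians were taken over the tested markers of each list. The one farthest from 0 was that of epithelium and olfactory bulb, at -1.17 (sums of 510.5 to 3733 against 298.3 to 2067). Of its 5 markers 4 were tested, with SEs from 0.67 to 0.82. Next came hindbrain and spinal cord, at -0.83 (381.4 to 611.6 against 211.1 to 490.7). Of its 4 markers only 2 were tested, miR-10a-5p (SE of 0.236) and miR-10b-5p (SE of 0.359). Their unadjusted limma p was 0.0183 and 0.0168. Among the markers of the other lists it was under 0.05 for miR-143-3p (0.0301) and miR-219a-5p (0.0154). The adjusted p was 0.967 for each of these, and 4.01% of all tested miRNAs had an unadjusted p under 0.05. The medians were -0.02 for astrocytes (3 of 4 markers tested), -0.10 for red blood cells, -0.12 for striated muscle and 0.07 for neurons. The part of other cells or regions in the levels of the members was not tested.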

How the data were processed

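Small RNA from 8 prefrontal cortex samples was enriched on columns, ligated to adapters, size-selected on a gel and sequenced, per the labels' protocols. Per the submitters' processing notes the tools were cutadapt 1.11, Bowtie 1.1.2, HTSeq 0.6.1p1, edgeR and R, on build mm10, with no order or settings. The authors deposited 1 value for each of 1915 mature names; per the file headers they are normalized counts, although all are whole numbers. Since how they were normalized is not given in the sources used here, the deposited values were treated as a score, without a count model.

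Values were rescaled by a trimmed mean of log ratios (30% of ratios and 5% of levels trimmed at each end). The test took each miRNA with a value of 10 or more (after adjusting for library size) in 4 or more libraries, and a summed value of 15 or more. limma 3.58.1 in R 4.3.3 compared log2(rescaled value + 1), letting the variance follow the mean level, and p-values were adjusted by Benjamini-Hochberg with a threshold of 0.05. Fold changes are on that scale, which understates those of low miRNAs. Ratios used deposited values with 0.5 added, and two-sided exact tests. The limma step was tested on simulated data. That test set no requirement for finding changes as small as those of the members. Depth beyond the totals is unknown for a score, so no counting intervals are given. The labels name no batch.

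The members, lists and tests were chosen with earlier results of these data known. Named are the 9 members, the other products of their hairpins and of the opposite strand, miRNAs sharing or shifting a seed, and the 3 closest patterns per locus. Other scalings, filters, pseudocounts, no trend, a replicate block and fits lacking 1 library were the alternatives.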

Additional observations from a re-analysis of the deposited data

How the results depend on the processing

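No member passed 0.05, adjusted or unadjusted, under any of the 19 alternatives in which it was tested (miR-27a-5p was too low for the stricter filter). Of 170 alternative log2 fold changes of members, 22 changed sign, all of members near 0. With upper quartile scaling miR-23a-3p was at 0.042, miR-27a-3p at 0.025 and miR-128-3p at 0.037, and relative to the library total miR-23a-3p was at 0.00299. In the 6 libraries with shared numbers, with or without the replicate block, miR-23a-3p was at 0.065, miR-27a-5p at -0.057 and miR-128-3p at 0.14. Without 1 library miR-23a-3p ran from -0.065 to 0.062, miR-27a-3p from -0.18 to 0.10, miR-27a-5p from -0.10 to 0.17, miR-24-3p from -0.034 to 0.087, miR-23b-3p from -0.050 to 0.10, miR-27b-5p from -0.031 to 0.15 and miR-128-3p from -0.13 to 0.071. miR-27b-3p stayed between -0.19 and -0.10 in all alternatives. The cause of these changes was not tested.

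The genotype difference in the log2 ratio of miR-23a-3p to miR-23b-3p was 0.019 under the replicate block and ran from -0.11 to 0.036 without 1 library. Without 1 library that of miR-27a-3p to miR-27b-3p ran from -0.044 to 0.24, that of miR-24-2-5p to miR-24-1-5p from -0.080 to 0.064, and that of the miR-27a arms from -0.19 to 0.23. Under the replicate block these were 0.085, -0.12 and 0.0016, where an exact test over 3 pairs cannot reach 0.05. The ratios between the loci within libraries kept their direction and their calls at a pseudocount of 5 and without each library.

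Over all tested miRNAs, 24 had an unadjusted p under 0.05 and 0 passed. The unadjusted count was 9 in the values as deposited, 50 without a filter and 15 with a stricter one (more and fewer miRNAs tested), and 18 to 34 without 1 library. It was 43 under the replicate block and 39 in the same libraries unblocked. The block gave 1 call, miR-690, which is no member. The labels do not say that the numbers pair libraries: same-numbered libraries had correlations of deviations of 0.0648, -0.0385 and 0.132, and 1 of 3 knockout libraries correlated best with its own number. The block changed no call of a member.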

Other observations

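Among 40 sets of 4 libraries (the members, their ratios and the related miRNAs, by genotype), 0 had a highest or lowest value set apart by Dixon's criterion; about 2 would be by chance.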
